A study of Homo sapiens with 6 samples.

Results

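The regions described here are 385 stretches of the human genome at which RNA crosslinked to HSPA1A and RNA crosslinked to HSPA8 both gave a peak in replicate 1 and neither gave one in replicate 2. They were found by pooling 4 deposited peak lists, merging overlapping peaks (by 1 bp or more, strand by strand), and keeping merged regions with a peak in both replicate 1 lists and in no replicate 2 list. This left 385 of 4136 merged regions, or 9.31%. Presence in the lists is what chose the regions, so that share is a description and nothing is read from it. The text calls them the shared replicate 1 regions.

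The libraries are FLASH-seq, in which ultraviolet light fixes RNA to a protein, the protein is purified through its tag and the attached RNA fragments are sequenced. The cell line was HEK293 Flp-In T-Rex, derived from human embryonic kidney and built so that tetracycline switches on a transgene, and the bait carried a 3xFLAG-HBH tag in every group. The baits were GFP, HSPA1A and HSPA8, with 2 biological replicates each, and every group was induced with 1 µg/ml tetracycline. The replicate 1 and replicate 2 libraries of HSPA1A and of HSPA8 are used below. The GFP lists were not analysed here, so no region has a background measured with a control bait, and more of an RNA in the cell cannot be told apart from more of it on the bait. The tagged protein is made from a transgene beside the cell's own HSP70 proteins, and each list comes from 1 library, so no value below has an SD.

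HSPA1A is the stress-inducible and HSPA8 the constitutive cytosolic HSP70 chaperone. Both bind unfolded stretches of protein in cycles of ATP hydrolysis, and the series asks which RNAs they bind, with RNA polymerase III in its title. Mitochondrial genes are transcribed from both strands of a small circular genome as long precursors, and pieces of that genome were copied into nuclear chromosomes during evolution as pseudogenes. XIST is the long non-coding RNA that coats the inactive X chromosome. RNA polymerase III makes tRNAs and other short RNAs, and tRNA genes carry an internal promoter element called the B box.

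Sequence could be read for the 6 shared replicate 1 regions that lay wholly inside a 300-base RefSeq promoter window on GRCh38.p14, and 3 more lay partly inside one. The first pair below shows how alike the copies of one tRNA are, the next is a glycine tRNA, the following pair lies in one pseudogene, and the last lies near the start of MIR663AHG on no listed gene. All are written 5′ to 3′ on the strand of the peaks, and capitals mark a match to the B box motif GTTCNANNC.

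TRH-GTG1-3, chr1:148281388-148281436, plus strand: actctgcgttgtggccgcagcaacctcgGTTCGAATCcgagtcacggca
TRH-GTG1-9, chr15:45201173-45201222, plus strand: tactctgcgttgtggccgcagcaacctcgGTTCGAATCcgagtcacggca
TRG-CCC2-2, chr16:636734-636796, minus strand: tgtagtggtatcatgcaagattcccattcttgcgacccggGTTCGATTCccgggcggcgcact
LOC110262331, chr16:34160104-34160144, plus strand: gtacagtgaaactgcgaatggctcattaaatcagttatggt
LOC110262331, chr16:34160148-34160176, plus strand: tttggtcgctcgctcctctcctacttgga
Beside MIR663AHG, chr20:26209349-26209398, minus strand: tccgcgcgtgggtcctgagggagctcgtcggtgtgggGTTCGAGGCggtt

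The last 49 bases of the histidine tRNA regions on chromosomes 1 and 15 were identical, so a read within them matches both. The B box motif was found in 4 of the 6 regions on the strand shown and in none of them on the other strand. Apart from the match beside MIR663AHG, the matches lie on tRNA genes, which carry a B box, and the histidine pair are copies of the same tRNA. Of 35116 RefSeq promoter windows, 2626 held the motif on at least one strand, which is 7.48%. The windows are longer than the regions, so that share is not a background for the regions and no enrichment is read from it. No region of the 6 held a TTTT run, the letters of the polymerase III terminator. The windows were chosen by position and not by the peaks, so these 6 do not stand for the other regions.

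The replicate 1 lists held 2744 peaks for HSPA1A and 2778 for HSPA8 on the 25 chromosomes used, and the replicate 2 lists held 2059 and 1423. Read depth behind the peaks is unknown. The shared replicate 1 regions took 427 of the HSPA1A replicate 1 peaks, or 15.6% (95% Wilson interval 14.3% to 17.0%), and 433 of the HSPA8 replicate 1 peaks, also 15.6% (14.3% to 17.0%). These intervals and those below cover counting error over peaks or regions only, and neighbouring regions on one transcript are not independent. Other patterns over the same 4136 regions were 648 regions in all 4 lists (15.7%), 70 in both replicate 2 lists alone (1.69%), 96 in both HSPA1A lists alone and 2 in both HSPA8 lists alone.

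Mitochondrial RNA, nuclear copies of mitochondrial genes and XIST held larger shares of the shared replicate 1 regions than of all 4136 merged regions. The mitochondrial genome held 38 of them (9.87%, against 2.42% of all regions), and 68 (17.7%, against 3.29%) lay on or within 1000 bp of a nuclear pseudogene of a mitochondrial gene. XIST held 33 (8.57%, against 2.03%). The rRNA genes and their pseudogenes held 51 (13.2%, against 7.81%) and the pseudogenes of 7SK RNA 22 (5.71%, against 2.30%). Nuclear tRNA genes held 31 (8.05%, against 5.78%), and the share of all tRNA regions that were in the set, 12.97% (9.29% to 17.8%), has an interval that reaches the 9.31% over all regions. Of the other regions, 37 lay on other protein-coding genes, 37 on other non-coding genes and 45 on no gene. The remaining families were small. There were 8 regions on snRNA pseudogenes (2.08%, against 4.93% for snRNAs and their pseudogenes) and 7 on polymerase III RNAs other than tRNA (1.82%, against 1.55%). Another 5 lay on pseudogenes of polymerase III RNAs other than 7SK (1.30%, against 3.94%) and 3 on snoRNAs (0.779%, against 2.42%).

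**Figure D1:**
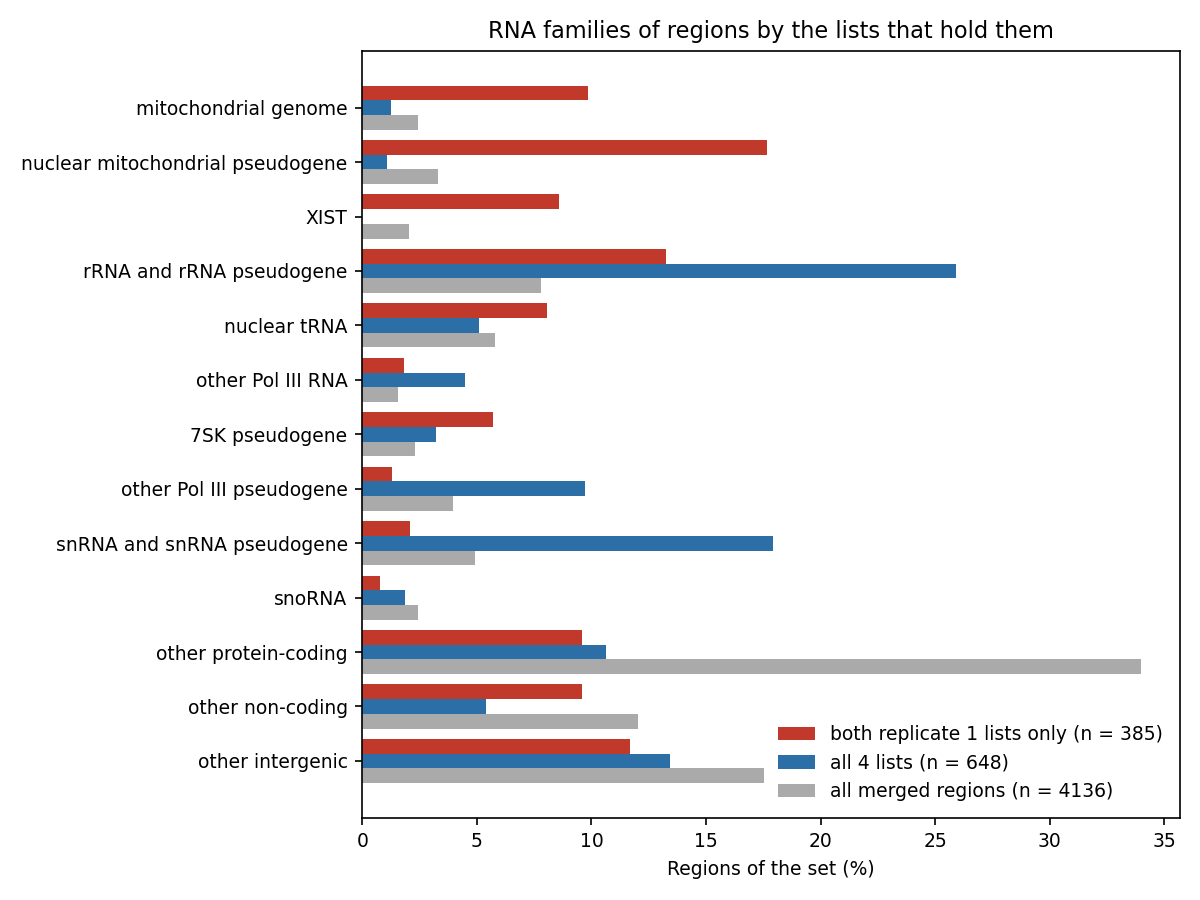
Horizontal bars give the percentage of regions in each of 13 RNA families for the 385 shared replicate 1 regions (red), the 648 regions in all 4 lists (blue) and all 4136 merged regions (grey). Mitochondrial, nuclear mitochondrial pseudogene and XIST regions made up 9.87%, 17.7% and 8.57% of the red set and 1.23%, 1.08% and 0% of the blue set, while snRNA families made up 2.08% and 17.9%.

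Set against the regions in all 4 lists, the families stood in another order. Of the 648 regions in all 4 lists, 8 lay on the mitochondrial genome, 7 on nuclear mitochondrial pseudogenes and 0 on XIST, while 116 lay on snRNAs or their pseudogenes and 168 on rRNA or its pseudogenes. By gene class, 46 shared replicate 1 regions lay on protein-coding genes, which is 11.9% (9.08% to 15.6%), against 1424 of all 4136 regions (34.4%). With protein-coding genes placed ahead of other non-coding genes in the assignment, these shares were 26.8% and 44.9%. Other non-coding genes, a class that includes pseudogenes and XIST, held 199 (51.7%, 46.7% to 56.6%) against 1243 (30.1%) of all regions. On snRNA genes proper there were 0 of 385, with an upper limit of 0.988%. These shares are descriptions, since the lists that define the sets also supply the regions.

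On the mitochondrial genome the cover by replicate 2 peaks differed by the kind of gene, and so did the replicate 1 scores. Regions on the rRNA genes scored 268 to 976 for HSPA1A and 448 to 989 for HSPA8 in replicate 1. The shared replicate 1 regions of this genome scored 5 to 45 and 5 to 55. Kind of gene and height of score therefore cannot be told apart here. RNR1 and RNR2, the genes of the small and large mitochondrial rRNA, had peaks in all 4 lists, which covered 91.7% and 93.6% of their bases in replicate 1 (HSPA1A, then HSPA8) and 79.3% and 73.0% in replicate 2. They held no shared replicate 1 region. The 13 protein-coding genes, which encode subunits of the respiratory chain and of ATP synthase, were covered over 63.0% and 83.7% of their bases on the coding strand in replicate 1, against 7.25% and 0.529% in replicate 2. Their peaks numbered 77 for HSPA1A and 101 for HSPA8 in replicate 1, against 11 and 1 in replicate 2. Of the 13, 9 lay at least in part on a region that held a replicate 2 peak. Of the 22 mitochondrial tRNA genes, 10 held a shared replicate 1 region, and 40.9% and 51.1% of the bases of all 22 were covered in replicate 1 against 12.7% and 5.44% in replicate 2.

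**Figure D2:**
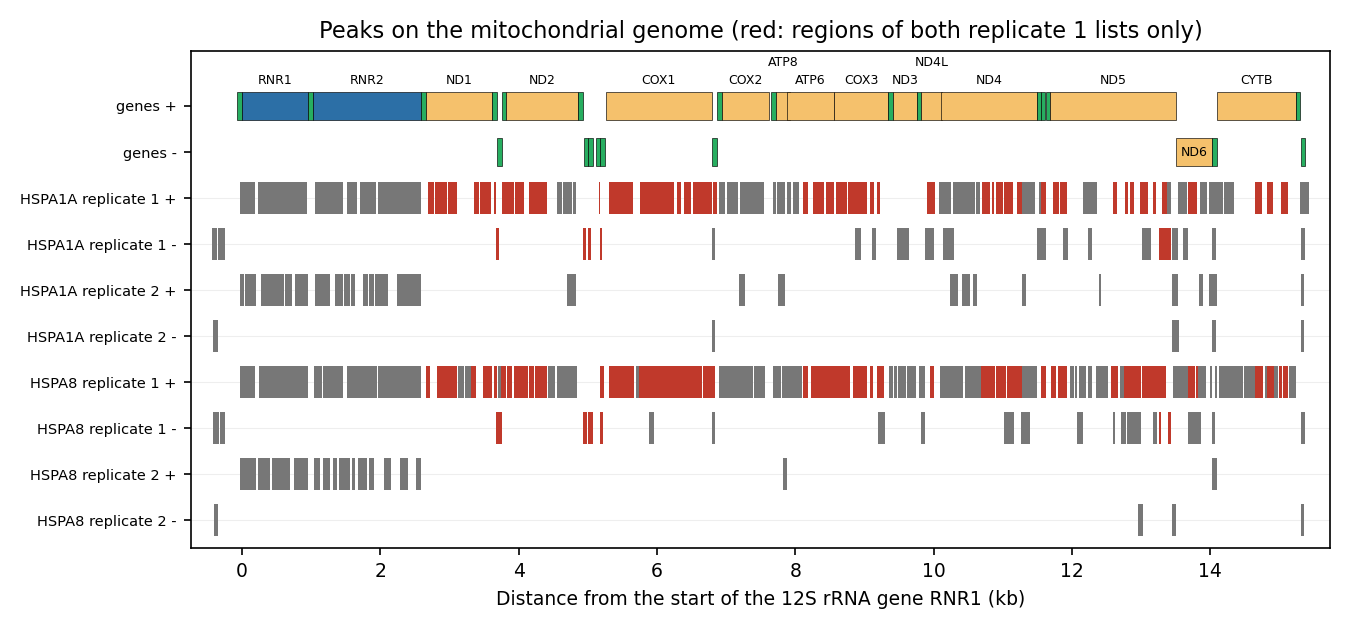
Tracks show every peak on the mitochondrial genome by list and strand against distance in kb from the start of the small rRNA gene RNR1, with rRNA genes in blue, protein-coding genes in orange and tRNA genes in green. Red peaks belong to the 38 shared replicate 1 regions and grey peaks to other regions; the rRNA genes are filled in all 4 lists and the protein-coding genes mainly in the replicate 1 lists.

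Shared replicate 1 regions lay on the coding strand of 9 of the 13 protein-coding genes: ND1, ND2, COX1, ATP6, COX3, ND4L, ND4, ND5 and CYTB. ND1, a subunit of respiratory complex I, had 5 and 8 peaks in the HSPA1A and HSPA8 replicate 1 lists and 0 in both replicate 2 lists. COX1, the catalytic subunit of cytochrome oxidase, had 13 and 13 against 0 and 0. COX3, of the same enzyme, had 6 and 6 against 0 and 0, and CYTB, the mitochondrially encoded subunit of complex III, 6 and 10 against 0 and 0. ND5 had 11 and 16 peaks in replicate 1 and 2 and 0 in replicate 2, and ND4 had 13 and 12 against 4 and 0. In each of these 6 genes both replicate 1 lists had more peaks than either replicate 2 list. That follows in part from the rule, since the genes are named for regions with replicate 1 peaks and no replicate 2 peak. COX2, ATP8 and ND3 held no shared replicate 1 region: COX2 and ATP8 had replicate 1 peaks inside regions that also held a replicate 2 peak, and ND3 had 0 and 4 peaks in replicate 1 and none in replicate 2.

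The 38 mitochondrial regions were between 38 and 524 bp wide, with a median of 126 bp, and covered 6677 bp. Of these, 33 lay on the plus strand and 5 on the minus strand. The widest, MT:8870-9393, spans the end of ATP6 and the start of COX3 and scored 45 for HSPA1A and 54 for HSPA8, each the best peak within it. The score is the authors' own whole number per peak, its unit is not given in the sources used here, and it is read only against other peaks of the same list. For scale, the large rRNA region MT:1685-2806, which is in all 4 lists, scored 976 and 989 in the same replicate 1 lists and 224 and 110 in replicate 2. Of the minus-strand regions, 4 lay on tRNA genes of that strand, at TRNQ (MT:4326-4402), TRNA (MT:5584-5639), TRNA and TRNN (MT:5654-5720), and TRNC and TRNY (MT:5823-5860). The last, MT:13900-14087, ran antisense to ND5.

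The 68 regions at nuclear copies of mitochondrial genes fell into 20 loci, and 45 of them overlapped an annotated pseudogene while 23 lay within 1000 bp of one. The largest locus was a cluster on chromosome 1 between positions 629289 and 634332, which holds MTND1P23, MTND2P28, MTCO1P12, MTCO2P12, MTATP8P1, MTATP6P1 and MTCO3P12, copies of mitochondrial protein-coding genes. It held 23 shared replicate 1 regions of 31 regions in all, with 28 and 33 peaks in the replicate 1 lists of HSPA1A and HSPA8 and 1 and 0 in replicate 2. The other large loci were copies of the mitochondrial large rRNA gene. MTRNR2L8 on chromosome 11 held 9 shared replicate 1 regions of 18, and its peaks numbered 15 and 16 in replicate 1 against 6 and 5 in replicate 2. MTRNR2L12 on chromosome 3 held 8 of 13 (12 and 12 peaks against 4 and 0), MTRNR2L2 on chromosome 5 held 7 of 15 (15 and 15 against 6 and 5), and MTRNR2L1 on chromosome 17 held 5 of 11 (8 and 9 against 1 and 0). Of the other 15 loci, 14 held 1 shared replicate 1 region each and 1 held 2.

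Reads from a mitochondrial transcript can match both the mitochondrial genome and a nuclear copy, and how such reads were placed is not given in the sources used here. The regions at nuclear copies and those on the mitochondrial genome therefore cannot be told apart by origin. Peaks of equal width and score were found at such places: the regions at TRNA on the mitochondrial genome, at MTCO1P2 on chromosome 14 and at LOC102724250 on chromosome 1 all scored 10 in both lists. The highest scores at nuclear copies were 49 for HSPA1A and 59 for HSPA8, and the medians over the 68 were 11.5 and 13.

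XIST had 73 and 74 peaks in the replicate 1 lists of HSPA1A and HSPA8, 1 in HSPA1A replicate 2 and 0 in HSPA8 replicate 2. All of them lay on the minus strand, the strand of the gene (chrX:73820656-73852714). They covered 6556 and 6666 bp in replicate 1 against 58 bp in HSPA1A replicate 2. Merging gave 84 regions, of which 33 were in both replicate 1 lists only, or 39.3% (29.5% to 49.98%), another 25 were in HSPA1A replicate 1 alone and 25 in HSPA8 replicate 1 alone. The single region with a replicate 2 peak, chrX:73850948-73851121, scored 14 and 6 in replicate 1 and 5 in HSPA1A replicate 2.

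**Figure D3:**
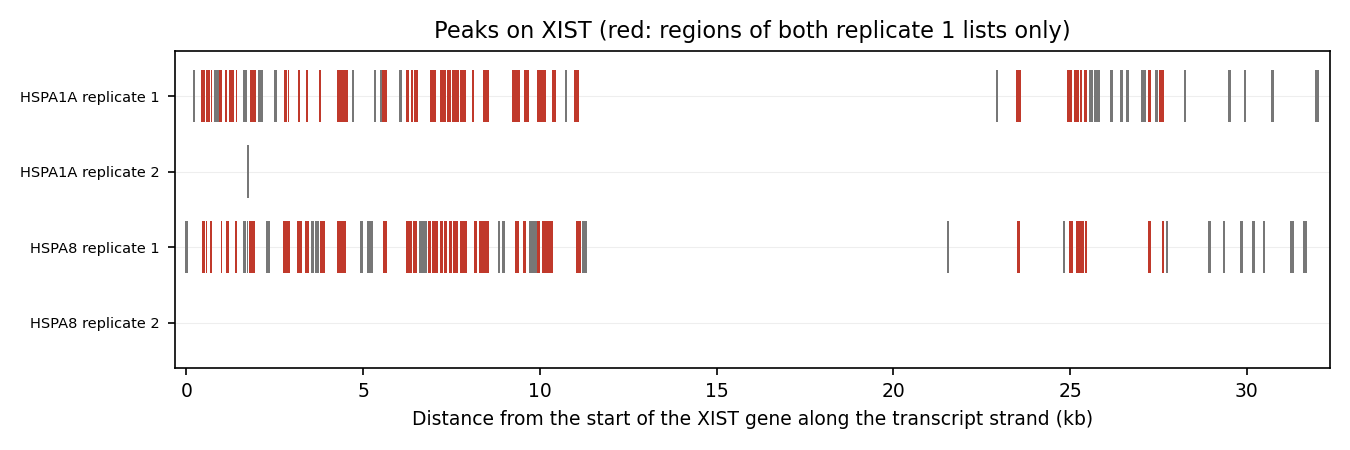
Tracks show every peak on XIST by list against distance in kb from the start of the gene along its own strand; red peaks belong to the 33 shared replicate 1 regions and grey peaks to other regions. The red peaks crowd the first 11 kb and a stretch beyond 20 kb, and the replicate 2 tracks hold 1 peak for HSPA1A and 0 for HSPA8.

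The 33 XIST regions were between 55 and 345 bp wide with a median of 163 bp, the widest median of the families described here. They began between 416 and 27528 bp from the start of the gene, with 26 of them wholly in the first 11000 bp, 1 across that point and 6 beyond 20000 bp. Their best scores ran from 5 to 22 for HSPA1A and from 3 to 21 for HSPA8, with a median of 10 in both lists. The region with the highest HSPA1A score, chrX:73829092-73829231, scored 22 there and 5 for HSPA8, and the one with the highest HSPA8 score, chrX:73850750-73850935, scored 21 there and 10 for HSPA1A. When each list was cut to its 1423 top-scoring peaks, XIST kept 26 and 39 peaks in replicate 1 and 0 in both replicate 2 lists, and 14 regions in both replicate 1 lists only.

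Ribosomal RNA and its pseudogenes were the family with the most replicate 2 peaks. They had 460 and 424 peaks in the replicate 1 lists of HSPA1A and HSPA8 and 549 and 542 in replicate 2, and 168 of their 323 regions were in all 4 lists. The 51 shared replicate 1 regions among them had a median width of 33 bp, and 46 of them had a replicate 2 peak within 1000 bp on the same strand. Of the 15 pseudogenes that the gene table names as copies of 18S or 28S rRNA, 12 held 45 of these regions, with scores of 5 to 35 for HSPA1A and 5 to 51 for HSPA8. Each of LOC110467534 on chromosome 22 and LOC110467535 on chromosome 20, both listed in the table as copies of such rRNA, held 6. LOC110262331, part of whose sequence is printed above, carries no such name in the table, and its 5 regions are counted with other non-coding genes; counted as an rRNA copy, it would bring the 51 to 56 and the 37 other non-coding regions to 32. The highest ranked rRNA region was chr14:16056003-16056073 in LOC110467536, with scores of 35 and 41. A region of 31 bp near one end of each of LOC110467533, LOC110467534, LOC110467535, LOC110467536 and LOC110467538 scored 29 or 30 for HSPA1A and 50 or 51 for HSPA8.

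Nuclear tRNA genes gave 31 shared replicate 1 regions, on 31 genes of 9 families out of 443 genes in 55 families. Over all nuclear tRNA regions, HSPA1A and HSPA8 had 180 and 176 peaks in replicate 1 and 159 and 56 in replicate 2. The 9 families hold regions chosen for having no replicate 2 peak, so their low replicate 2 counts follow in part from the rule. Cysteine, methionine and histidine tRNA genes held 23 of the 31. Of 29 cysteine genes (TRC-GCA), 8 held a region, and 12 and 9 genes had a peak in the replicate 1 lists of HSPA1A and HSPA8 against 0 and 0 in replicate 2. Of 11 methionine genes with the symbol TRM-CAT, 8 held a region, with 8 and 8 genes against 0 and 0. The 8 genes with the same anticodon under the symbol TRX-CAT held 0 regions, with 8 and 2 genes against 8 and 0. Of 9 histidine genes (TRH-GTG), 7 held a region, with 9 and 9 genes against 2 and 0. The other 8 regions lay on 2 leucine (TRL-CAA), 2 serine (TRS-TGA), 2 glycine (1 TRG-CCC and 1 TRG-TCC), 1 valine (TRV-CAC) and 1 tyrosine (TRY-GTA) gene.

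**Figure D4:**
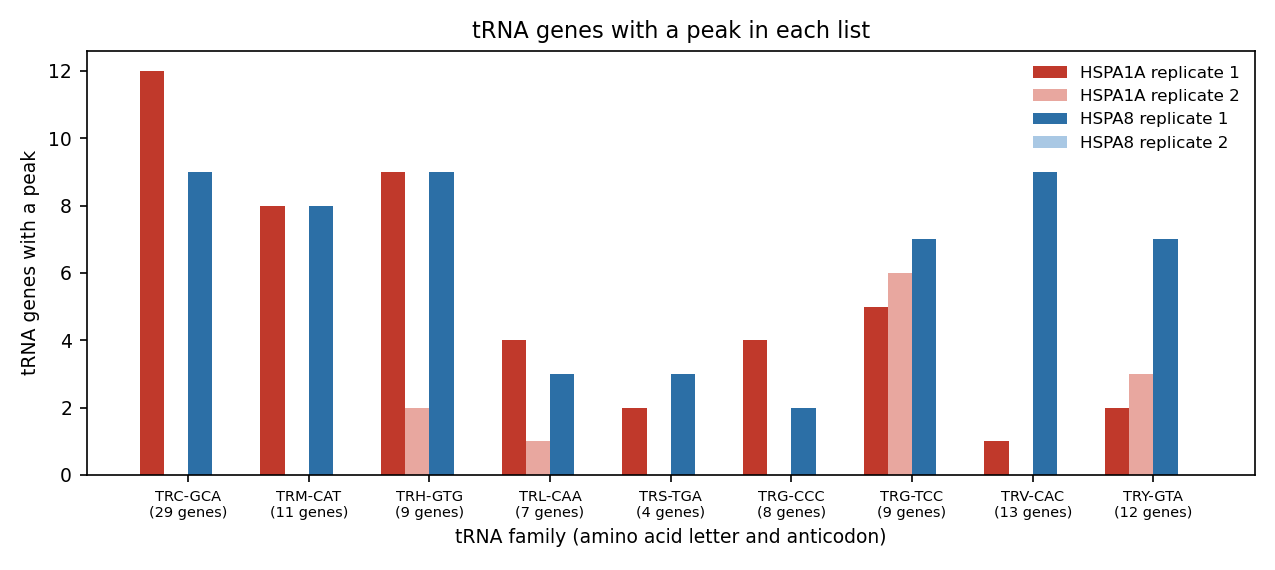
Bars give the number of tRNA genes with a peak in each list for the 9 families that hold a shared replicate 1 region, with the number of genes in the family under its name. The families TRC-GCA, TRM-CAT, TRS-TGA, TRG-CCC and TRV-CAC have no bar for either replicate 2 list, and HSPA8 replicate 2 has none in any of the 9. The families are shown because they hold regions chosen for having no replicate 2 peak, so missing replicate 2 bars follow in part from the rule.

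Scores on these tRNA regions were low and repeated from gene to gene. All 7 histidine regions scored 11 in both lists, and the sequences of a pair of them are printed above. Cysteine regions scored 5 to 8 for HSPA1A and 6 to 8 for HSPA8, and methionine regions 6 to 7 and 5 to 11. The highest HSPA1A score was 17, at TRS-TGA2-1 on chromosome 6, where HSPA8 scored 7. The methionine genes TRM-CAT2-1, TRM-CAT4-1, TRM-CAT4-2 and TRM-CAT4-3 all scored 7 and 11 with peaks of the same widths. The count of tRNA regions was 16 with the 1423 top-scoring peaks of each list and 88 without the HSPA1A replicate 2 list.

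Most tRNA regions covered the 3′ part of the gene when its ends were set by the strand of the peak, since the tables used here give no strand for these genes. Of 31, 28 started at least 10 bp inside the gene, with a median start 23 bp from the 5′ end, and 29 ended within 5 bp of the annotated 3′ end. Of those, 8 ended at the last base of the gene and 17 ended 3 bp past it. Of the 33 tRNA regions in all 4 lists, 15 started at least 10 bp inside the gene and 30 ended within 5 bp of its 3′ end. Both sets count copies of a tRNA many times. The histidine regions all started 22 or 23 bp from the 5′ end, and 13 genes of the family TRD-GTC held a region in all 4 lists. None of the 31 shared replicate 1 regions on tRNA genes had a replicate 2 peak within 100 bp.

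Other polymerase III genes gave 7 regions. The snaR genes, short non-coding RNAs found mainly in clusters on chromosome 19, gave 6 of them on 28 genes, and 19 and 19 snaR genes had a peak in the replicate 1 lists against 10 and 0 in replicate 2. SNAR-A1 and SNAR-A2 both scored 10 for HSPA1A and 13 for HSPA8, SNAR-B1 and SNAR-B2 both 7 and 10, and SNAR-C3 and SNAR-C4 both 7 and 7. The seventh was RNY1, one of the Y RNAs that associate with the Ro protein, on chr7:148987138-148987249 with scores of 7 and 8.

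The 7SK RNA itself, which holds the elongation factor P-TEFb in an inactive complex, was in all 4 lists (chr6:52995638-52995950) with scores of 273 and 228 in replicate 1 and 103 and 42 in replicate 2. Its pseudogenes gave 22 shared replicate 1 regions on 22 of 293 genes, and 65 and 53 pseudogenes had a peak in the replicate 1 lists of HSPA1A and HSPA8 against 42 and 20 in replicate 2. These regions had a median width of 35 bp and median scores of 6 and 6. The highest HSPA1A score was 30, at RN7SKP176 on chr16:81962087-81962141, where HSPA8 scored 5. Within the pseudogenes, with ends again set by the strand of the peak, 6 regions started 50 to 65 bp from the 5′ end, 7 ended within 10 bp of the 3′ end, 5 ended 20 to 30 bp before it and 4 lay elsewhere. Their count was 6 with 1423 top peaks per list and 38 without HSPA1A replicate 2.

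Pseudogenes of the other short RNAs gave smaller shares. Those of 5S rRNA, U6 and 7SL gave 5 of their 163 merged regions (3.07%), against 9.31% over all regions. The snRNAs and their pseudogenes gave 8 of 204 (3.92%). Of these 163 and 204 regions, 109 and 168 held a replicate 2 peak. Pseudogenes of 5S rRNA gave 3 on 510 genes, U6 pseudogenes 1 on 1277 and 7SL pseudogenes 1 on 684. Pseudogenes of the spliceosomal RNAs U1, U4 and U2 gave 4, 3 and 1 on 115, 89 and 69 genes. The highest ranked of these, RNU4-82P on chr9:124887483-124887530, scored 15 and 13, and RNU2-41P on chr2:114420152-114420186 scored 14 and 11. The 3 snoRNA regions were SNORD3P3 (21 and 11), LOC124902101 (14 and 6) and SNORD110 (7 and 9), the last a box C/D RNA.

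Protein-coding genes with several shared replicate 1 regions included LOC102724250 with 3, PMF1 with 3 and RAE1 with 2. The 3 within LOC102724250 lie in the chromosome 1 cluster of mitochondrial copies, and 1 of the 2 within RAE1 lies at MTRNR2L3. The other RAE1 region, chr20:57360308-57360337, has the scores and peak widths of regions at MTCO1 pseudogenes but is counted with protein-coding genes. When regions near nuclear mitochondrial pseudogenes were set aside, 37 regions on protein-coding genes were left (9.61%). PMF1, a subunit of the MIS12 kinetochore complex, held its 3 regions within chr1:156216440-156216727 on the strand of the gene, with scores of 6 and 9, 13 and 6, and 16 and 16. Its span had no replicate 2 peak.

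Gene strand was known for 31 of the 46 protein-coding regions, and 17 of the 31 lay on it while 14 lay opposite. Over all merged regions, 911 of 1168 lay on the gene strand (78.0%), and over the regions in all 4 lists 26 of 53 did. Of the 47 other non-coding regions with a known gene strand, 42 lay on it, 33 of them XIST. Without XIST, 9 of 14 did. Of the protein-coding regions on the opposite strand, the one in SLC26A3, the gene of an intestinal chloride exchanger, had the highest rank of all 385. It lay at chr7:107770197-107770269 with scores of 60 and 63, and the nearest replicate 2 peak on its strand was 1668730 bp away. On the other strand, however, each of the replicate 2 lists had 1 peak within SLC26A3.

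The 10 regions with the highest mean rank in the replicate 1 lists came from several families. After SLC26A3 they were the intergenic region chr7:45251998-45252073 (45 and 54), with an HSPA1A replicate 2 peak 2 bp away, MT:8870-9393 (45 and 54), the intergenic region chrX:109054368-109054418 (44 and 44), with an HSPA8 replicate 2 peak 6 bp away, and MTRNR2L8 at chr11:10507892-10507965 (40 and 48). The others were chr11:10509486-10509561 near MTRNR2L8 (49 and 36), the intergenic chr1:27916102-27916131 (32 and 57), MTATP6P1 at chr1:633925-634079 (29 and 59), LOC110467536 and MTRNR2L9 at chr6:61574144-61574215 (37 and 38). Of these 10, 1 lies on the mitochondrial genome, 3 on nuclear pseudogenes of its genes and 1, chr11:10509486-10509561, on no listed gene but within 1000 bp of such a pseudogene.

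None of the 385 reached the top 10% of scores in either replicate 1 list. The floors of the top 10% were scores of 335 for HSPA1A and 298 for HSPA8, and the highest scores in the set were 60 and 85. Median best scores were 10 and 10, with quartiles of 7 and 15 for HSPA1A and 7 and 17 for HSPA8. Regions in all 4 lists had medians of 104 and 84.5 in the same lists, and regions in a single replicate 1 list had medians of 5 and 5 (n = 906 and 1144). The medians of the shared replicate 1 regions lay between those of the other sets, and 204 and 206 regions scored 10 or less.

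**Figure D5:**
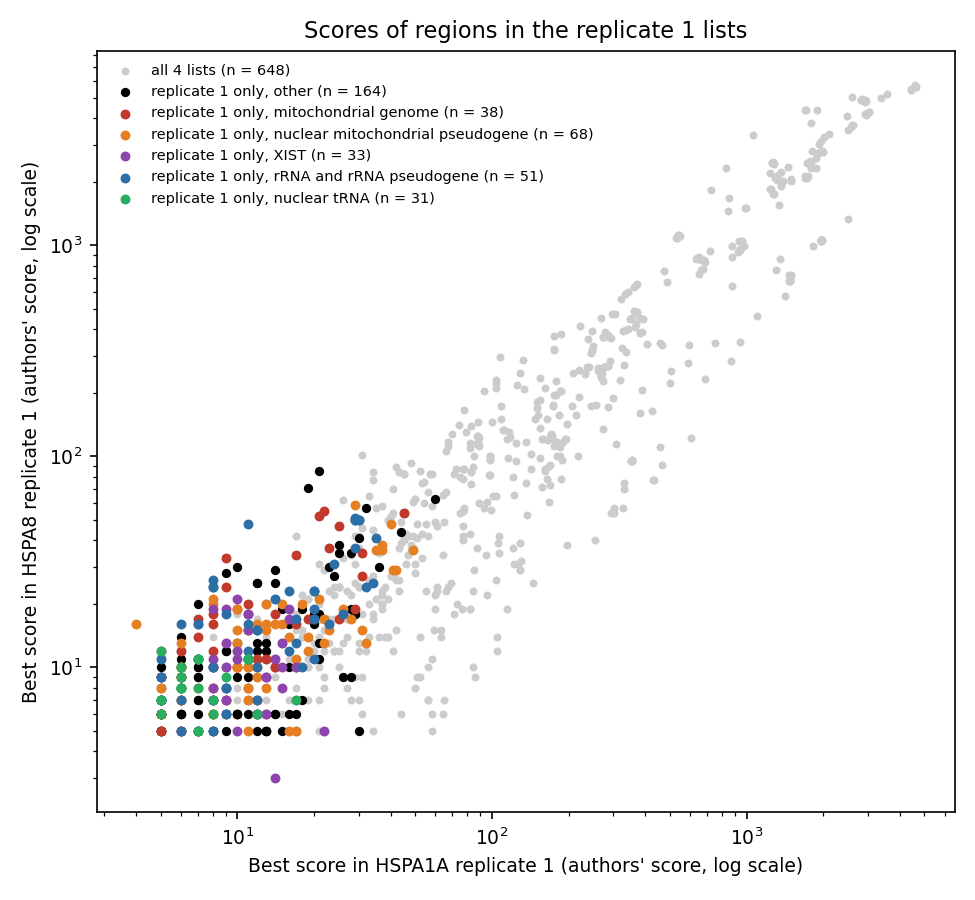
Points give the best score of each region in the HSPA1A replicate 1 list (x axis, log scale) and the HSPA8 replicate 1 list (y axis, log scale), in the authors' score units, with the 648 regions in all 4 lists in grey and the 385 shared replicate 1 regions coloured by family. The coloured and black points stay at or under 60 on the x axis and 85 on the y axis, while the grey points reach 4622 and 5733.

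Across the 385 regions the replicate 1 scores of both baits had a Pearson correlation of 0.685 and a Spearman correlation of 0.555, against 0.928 and 0.926 across the 648 regions in all 4 lists. The regions share libraries, and some are copies of one another, so these values only describe the lists. The rule requires the peaks of both lists to overlap or join, so their overlap is given as a description only. Of the 341 regions with 1 peak in each list, 234 had the shorter peak wholly inside the longer one, 88 shared the start, 93 the end and 28 both, and 6 overlapped by less than 50% of the shorter peak. Region widths ran from 21 to 524 bp with a median of 50 bp, against a median of 66 bp for regions in all 4 lists, and the whole set covered 29238 bp.

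Copies of the same sequence were counted as separate regions. When regions with the same scores and peak widths in both lists were taken as 1, 331 of the 385 were left, and 35 groups held 89 regions. The largest groups, named here after their values were seen, were 6 regions with scores of 6 and 10 that include FLJ43315, LOC442028 and RAE1, and 5 with scores of 5 and 6 at NOTCH2, NOTCH2NLA, NOTCH2NLB, NOTCH2NLC and NOTCH2NLR, the NOTCH2 receptor gene and its partial duplicates. Another group of 5, with scores of 11 and 11, lay on the histidine tRNA genes TRH-GTG1-1, TRH-GTG1-2, TRH-GTG1-3, TRH-GTG1-4 and TRH-GTG1-8. Apart from the RAE1 region, the group of 6 lies at the MTCO1 pseudogenes MTCO1P32, MTCO1P33, MTCO1P34, MTCO1P36 and MTCO1P48. The complement genes C4A and C4B, a tandem duplicate, both scored 7 and 5.

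At the edge of the rule, some regions had a replicate 2 peak beside them. On the same strand, 15 regions had one within 10 bp, 44 within 50 bp and 142 within 1000 bp, and the median distance was 17779 bp. The nearest were RNA45SN2 at chr21:8209031-8209116, which touched an HSPA1A replicate 2 peak, TXNL4A at chr18:80012975-80013004 with an HSPA8 replicate 2 peak 1 bp away, and MTRNR2L9 and chr7:45251998-45252073, each with an HSPA1A replicate 2 peak 2 bp away. On the opposite strand, which the rule does not look at, a replicate 2 peak overlapped 10 regions. Just outside the rule, 895 regions were in both replicate 1 lists and at least 1 replicate 2 list. For each of them the largest overlap between a replicate 1 and a replicate 2 peak was taken. The smallest of these was 19 bp and the median was 42 bp.

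Few shared replicate 1 regions lay on the other lists of genes, which are short. Over the whole table, 259 of 59716 genes overlapped one, or 0.434%. Of 85 cytosolic ribosomal protein genes, 2 held a region (2.35%), RPS2 (scores 6 and 7) and RPS4X (5 and 7). Of the 85, 19 and 22 had a replicate 1 peak against 9 and 14 in replicate 2. Of 76 chaperone genes 1 held a region (1.32%), DNAJC1, where the region lies on RN7SKP37 inside it. Both shares are above that over all genes, on counts of only 2 and 1. Translation factors (79 genes), replication-dependent histones (68), snoRNA host genes (30), cytoskeleton and glycolysis genes (14) and the long non-coding RNAs MALAT1, NEAT1, TUG1, KCNQ1OT1, MEG3 and NORAD held 0. The bait genes held 0 as well. A 0 here is not read as a lack, since each of these lists is short against the 0.434% over all genes. HSPA1A had 4 and 1 peaks in the replicate 1 lists of HSPA1A and HSPA8 and 0 in replicate 2, HSPA1B 4 and 2 against 0, and HSPA8 1 and 1 against 0 and 2.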

How the data were processed

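FLASH-seq was done on 6 libraries, 2 each of tagged GFP, HSPA1A and HSPA8, and the 4 HSPA1A and HSPA8 lists were used. Each deposited list holds the peaks of 1 library, with position, strand and a whole-number score set by the authors, whose unit is not stated. Random adapter tags were used to merge PCR duplicates, per the labels' protocols. Per the submitters' processing notes the build is GRCh38, and Trim Galore 0.4.4, FastQC, STAR 2.6.0b and deepTools are named there. The peak caller, its threshold and the placing of reads that match several sites are not given in the sources used here.

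Peaks on chromosomes 1 to 22, X, Y and MT were merged by strand in Python 3.11.15, with numpy 2.4.6, scipy 1.17.1 and matplotlib 3.10.9. The merge was checked against bedtools, which also gave 4136 regions, and was tested on simulated data. Coordinates are 1-based on GRCh38. Genes came from the RefSeq GRCh38.p14 table, by any overlap. Where several matched, Pol III genes came first, then mitochondrial, then rRNA, snRNA and snoRNA genes, then other non-coding and last protein-coding ones, and the shortest gene within a class. The table gives no exons, strand was known for 29079 genes, and sequences came from RefSeq promoter windows.

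The regions, families and lists were chosen with earlier results of these data known, and no test was made: presence in the lists is the rule itself. Named are the bait genes, the 10 regions with the highest mean score percentile, the 5 genes with most regions in the protein-coding and other non-coding classes (ties at 1 region left out, and 1 gene not reported here), examples per RNA family, and members of the fixed gene lists. Families near pseudogenes, copies counted once and family counts under other list lengths were added after the data were seen.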

Additional observations from a re-analysis of the deposited data

Results flagged for a closer look

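Peaks on scaffolds outside the 25 chromosomes entered no count above. The HSPA8 replicate 1 list held 353 of them and the HSPA8 replicate 2 list 617, while both HSPA1A lists held 0. The rule leaves them out of every region, and their part in the lengths of the lists used (2778 and 1423 peaks for HSPA8) was not tested.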

How the results depend on the processing

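Of 91 values under other settings, 67 stayed within 1.5 times the count or inside the interval of the share, and 24 moved. The count of 385 became 238 with equal numbers of top-scoring peaks (1423 per list) and ran from 431 to 1610 when 1 list was left out, 1610 without HSPA1A replicate 1, 1355 without HSPA8 replicate 1 and 589 without HSPA1A replicate 2. The protein-coding share of 11.9% became 26.8% with protein-coding genes placed ahead of other non-coding genes and 6.84% by base pairs, and ran from 10.9% to 43.9% with 1 list left out. The Pol III share of 9.87% became 13.8% with peaks within 50 bp merged and 6.95% with copies counted once, and ran from 4.29% to 18.2%. The tRNA share of 8.05% became 11.2% with peaks within 50 bp merged and 5.74% with copies counted once, and ran from 3.60% to 14.9% with 1 list left out. The share outside genes of 14.5% became 18.6% without multi-copy RNA classes and 8.92% by base pairs, and ran from 12.6% to 16.6%. With equal numbers of peaks, mitochondrial regions numbered 32, those at nuclear mitochondrial pseudogenes 46 and rRNA regions 47. The cause was not tested, except that leaving out a list loosens the rule by construction.

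No paired analysis was possible because the regions are defined by presence in the replicate 1 lists and absence from the replicate 2 lists, and their counts come from no test. Read depth is unknown, and the absence of a peak does not show the absence of RNA.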

Other observations

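By chromosome, shared replicate 1 regions made up 38 of 100 merged regions on the mitochondrial genome, 41 of 226 on the X chromosome, 25 of 142 on chromosome 20, 18 of 107 on chromosome 22 and 9 of 250 on chromosome 21. On the X chromosome 33 of the 41 are the XIST regions. Chromosome 21, which carries annotated rRNA repeats, had 171 regions in all 4 lists.

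On the mitochondrial genome the minus strand carried 24 peaks in each replicate 1 list, covering 1811 bp for HSPA1A and 1766 bp for HSPA8, against 5 and 4 peaks in replicate 2, covering 326 and 242 bp. Of the 100 mitochondrial regions, 12 were in the HSPA1A replicate 1 list alone, 30 in the HSPA8 replicate 1 list alone and 0 in a replicate 2 list alone.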
